A study of Mus musculus with 10 samples.

Results

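The 6 genes described here (Lifr, Il6st, Jak1, Stat3, Socs3 and Pim1) make up the core of leukaemia inhibitory factor (LIF) signalling, and were chosen by symbol from the table of transcribed units (TUs), in which each had 1 TU. A TU is a stretch of one strand from which new RNA was detected, with or without a known gene. All 6 passed the filter on low counts, together with 28459 of the 40779 TUs in the table, of which 14997 carried a gene symbol. TT_chem-seq was used to measure nascent RNA, by labelling RNA in living cells with 4-thiouridine (4SU, 2 mM for 10 min) and sequencing only the labelled molecules, so that values reflect RNA made in that window rather than the standing mRNA pool.

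The cells were E14 mouse embryonic stem cells (mESC) of genotype SOX2-FKBP, in which both copies of the pluripotency factor Sox2 encode a fusion with the FKBP degron, and which per the study's methods came from homozygous clones. NT cells received DMSO, and the other groups received 500 nM dTAG-13, a small molecule that brings the fusion protein to the proteasome, for 0.5, 1, 2 or 6 h (hours post depletion, hpd). Each of the 5 groups had 2 libraries. All groups grew without serum in medium with LIF itself, the MEK inhibitor PD0325901 (1 µM) and the GSK3 inhibitor CHIR99021 (3 µM), and the question was how transcription of the genes that receive and transmit the LIF signal moved as SOX2 was lost. Cells got fresh medium before treatment, and the start of depletion was staggered so that all were collected at once. An effect of fresh medium and LIF on the same clock, or of dTAG-13 itself, was not tested, since untagged cells given dTAG-13 were not analysed here.

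LIF binds the receptor LIFR, which pairs with the shared signal transducer gp130, encoded by Il6st. The kinase JAK1, bound to the receptor chains, then phosphorylates the transcription factor STAT3, which moves to the nucleus and activates genes including Socs3 and Pim1. SOCS3 binds gp130 and JAK and ends the signal, whereas PIM1 is a kinase that favours survival, and in mouse embryonic stem cells STAT3 activity sustains self-renewal.

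Libraries held 11131490 to 25854106 fragments, and the 6 genes took 0.0535 to 0.0743% of them. Stem cell markers summed over 8 genes to 3178 to 3501 CPM in NT and 2624 to 2786 CPM at 6 hpd (fragments per library size, TMM-scaled, in the usual CPM unit). Of these 8, 1, 2, 4 and 5 were called down at 0.5, 1, 2 and 6 hpd and none up in edgeR, where 0.787, 3.61, 5.57 and 9.20% of all TUs were called down, among them Utf1 (-1.78 ± 0.22 at 6 hpd) and Pou5f1, which encodes OCT4 (-0.62 ± 0.11 at 6 hpd). The 5 detected of 6 primitive endoderm markers summed to 4.29 to 4.91 CPM in NT and 7.02 to 7.63 CPM at 6 hpd, with Gata6 called up at 2 hpd by edgeR (1.14 ± 0.31) and not by DESeq2, and Gata4 between -0.45 ± 0.40 and -0.23 ± 0.39 and not called. Sox7 and Pdgfra were also tested and not called. Over the 4 tested, the highest values were 1.67, 1.99, 1.60 and 1.21 at 0.5, 1, 2 and 6 hpd, none of them called. The 3 detected of 5 trophoblast markers summed to 13.7 to 16.2 CPM in NT, 18.9 to 21.7 CPM over 0.5, 1 and 2 hpd and 16.1 to 17.8 CPM at 6 hpd, and Eomes was called up at the first 3 times (1.52 ± 0.21, 1.64 ± 0.20 and 1.79 ± 0.20). Ascl2, the only other trophoblast marker tested, lay between -0.04 and 0.08 over the 4 times and was not called. The 2 detected of 6 feeder fibroblast markers summed to 0.606 to 1.46 CPM over all libraries. The marker genes were named after their values were seen, and their part in the values of the 6 genes was not tested. Sox2 itself, whose protein and not its gene was targeted, was not called at any time, with log2 fold changes between -0.12 ± 0.11 and 0.09 ± 0.11. The files measure no protein and so hold no check of the depletion. Nothing in the labels says that the libraries of a group came from separate cultures, so that p-values measure the spread between these samples, which may be technical. In bulk libraries a change in the share of cells that transcribe a gene and a change per cell cannot be told apart.

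Both receptor chains, Lifr and Il6st, fell within 0.5 hpd and stayed below NT at every later time. The kinase Jak1 and the factor Stat3 rose from 2 and 1 hpd onward, and the STAT3 targets took another course, with Socs3 up at 0.5 hpd and Pim1 below NT at 6 hpd. In edgeR's quasi-likelihood test with Benjamini-Hochberg adjustment over all tested TUs (adjusted p under 0.05), 3 of the 6 genes were called at 0.5 hpd (1 up, 2 down), where 1.31% of all TUs were called (0.527% up, 0.787% down). At 1 hpd 3 were called (1 up, 2 down) against 5.75% of all TUs (2.15% up, 3.61% down). At 2 hpd 4 were called (2 up, 2 down) against 9.83% (4.26% up, 5.57% down), and at 6 hpd 5 were called (2 up, 3 down) against 15.8% (6.61% up, 9.20% down). Where no other tool or fit is named, called refers to this edgeR fit, which has no replicate block. In the joint test over the 4 time points all 6 passed, as did 12.3% of all TUs. The shares over all TUs, here and for the gene lists below, are not matched for level. Of the 28459 tested TUs 13500 averaged under 50 fragments, whereas the 6 genes averaged 417 to 3396. The 4 comparisons share the NT libraries, and the members had been picked with these results in view. The median log2 fold change of the 6 genes was 0.14, 0.15, -0.18 and -0.53 at 0.5, 1, 2 and 6 hpd, beside -0.02, -0.04, -0.04 and -0.04 over all TUs.

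**Figure D1:**
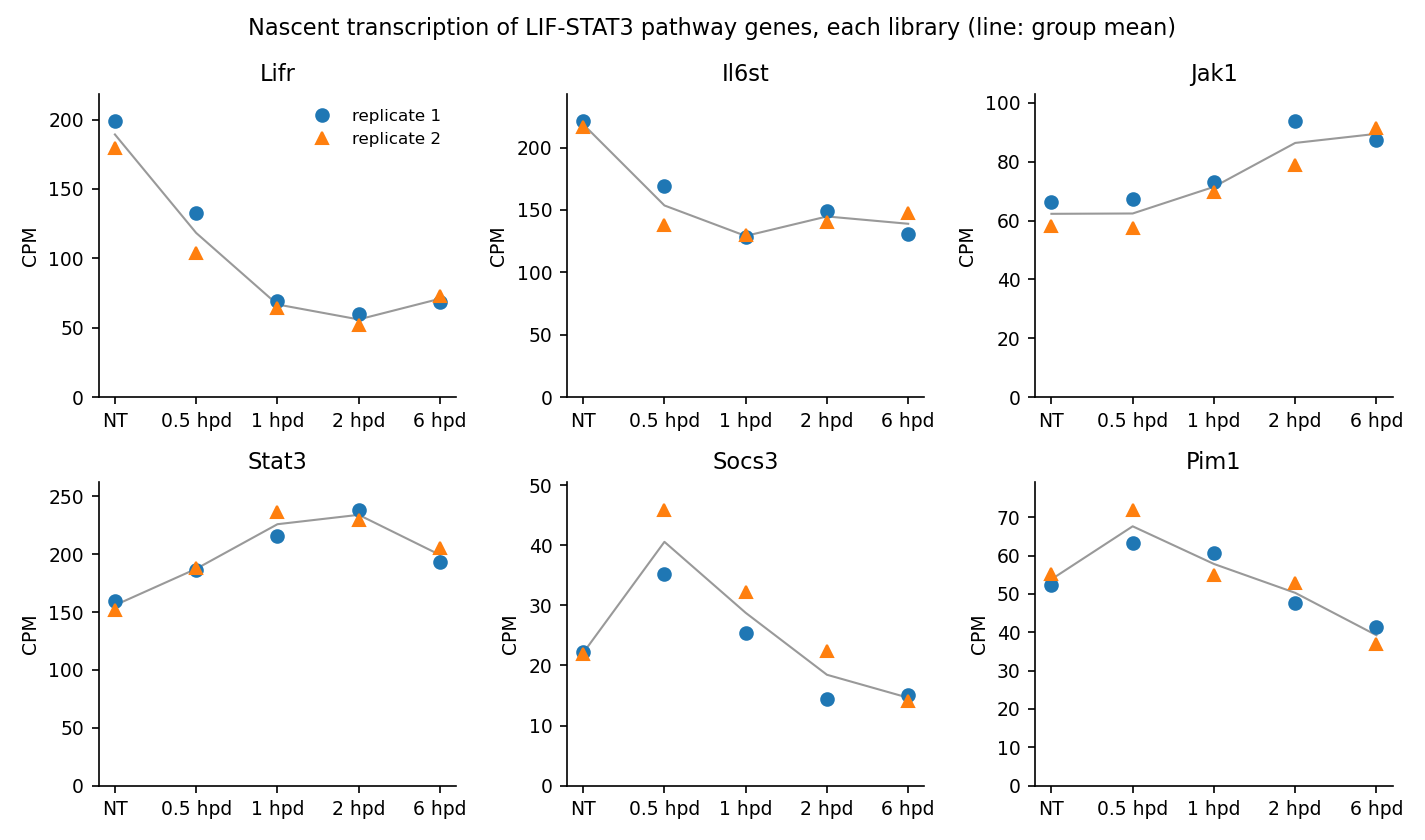
Level of each of the 6 genes in CPM (vertical axis, from 0) by group (horizontal axis), with circles for replicate 1, triangles for replicate 2 and a line through the group means. Lifr dropped from 180 to 199 CPM in NT to 51.9 to 60.1 CPM at 2 hpd, while Stat3 climbed from 152 to 160 CPM to 230 to 239 CPM and Socs3 peaked at 35.2 to 45.9 CPM at 0.5 hpd.

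Per length of TU, the NT levels of the 6 genes spanned about an order of magnitude. Pim1 was highest with 5.50 ± 0.20 CPM per kb (SD, n = 2), followed by Il6st with 3.78 ± 0.06, Stat3 with 2.50 ± 0.08, Lifr with 2.38 ± 0.17, Socs3 with 2.34 ± 0.02 and Jak1 with 0.515 ± 0.048 CPM per kb. The replicates of Stat3 and Lifr overlapped, as did those of Lifr and Socs3, whereas the other neighbours in this order did not. Jak1 was also the gene with the longest TU (120.9 kb), and Socs3 (9.43 kb) and Pim1 (9.78 kb) had the shortest. On this scale 4.65% of the TUs with a symbol lay above Pim1 in NT and 60.2% above Jak1.

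Lifr encodes the LIF receptor chain that gives the complex its specificity. Its TU spans chr15:7129601-7209018 on the plus strand (mm10, coordinates as deposited). Lifr was at 199 and 180 CPM in NT, 133 and 104 CPM at 0.5 hpd, 69.6 and 63.9 CPM at 1 hpd, 60.1 and 51.9 CPM at 2 hpd, and 68.6 and 73.2 CPM at 6 hpd. Every treated library lay below both NT libraries, and those of 1, 2 and 6 hpd also lay below both libraries of 0.5 hpd. The log2 fold change against NT was -0.67 ± 0.12 (SE) after 0.5 h (adjusted p = 0.0126), -1.50 ± 0.13 after 1 h (adjusted p = 6.22e-06), -1.76 ± 0.13 after 2 h (adjusted p = 8.57e-07) and -1.42 ± 0.13 after 6 h (adjusted p = 3.18e-06). Mean transcription thus stood at 62.5, 35.3, 29.6 and 37.5% of NT.

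Lifr kept falling after 0.5 hpd. Of the 6 genes only Lifr passed the test of 1 against 0.5 hpd, in which 0.109% of all TUs were called (0.0984% down), with a difference of -0.83 ± 0.13 on the log2 scale (adjusted p = 0.0166). It was not called without 0.5 hpd replicate 1 or without either 1 hpd library. The small rise from 2 to 6 hpd was 0.34 ± 0.13 with an adjusted p of 0.301 and was not called. None of the 6 genes was called between 2 and 1 hpd or between 6 and 2 hpd, where 0.218% and 0.777% of all TUs were, although 2 and 3 of them had an unadjusted p under 0.05 in edgeR. DESeq2, which called 0.365% and 1.03% of all TUs in these 2 comparisons, called none of the 6.

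Some transcription without a known gene near Lifr fell as well. Of 6 TUs without a symbol whose start lay within 50 kb of the Lifr start, 3 passed the count filter and 2 were called. Both were called at 1, 2 and 6 hpd, where 5.75, 9.83 and 15.8% of all TUs were. The TU inside Lifr on its opposite strand, which started 32.1 kb downstream of the Lifr start, was too low to test, with 1 and 6 fragments in NT and 11 and 9 at 6 hpd, and a log2 fold change of 1.38 ± 0.67 at 6 hpd in the fit without a count filter (adjusted p = 0.209). The longer of the 2 called TUs ran on the minus strand and began 47.7 kb upstream (chr15:7055343-7081944). It held 139 and 231 fragments in NT, 137 and 75 after 0.5 h, 34 and 37 after 1 h, 32 and 26 after 2 h, and 24 and 20 after 6 h. Its log2 fold change was -1.17 ± 0.25 after 0.5 h (adjusted p = 0.0288), -2.62 ± 0.28 after 1 h (adjusted p = 4.51e-05), -3.05 ± 0.29 after 2 h (adjusted p = 7.97e-06) and -3.20 ± 0.30 after 6 h (adjusted p = 4.17e-06). The NT libraries stood apart (9.36 and 16.8 CPM), and all treated libraries lay below both (1.16 to 6.41 CPM).

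The other called TU was the divergent partner of the Lifr promoter, which started 245 bases before the Lifr TU and ran away from it on the minus strand (chr15:7125448-7129356). It held 36 and 40 fragments in NT, 29 and 10 after 0.5 h, 5 and 6 after 1 h, 12 and 13 after 2 h, and 18 and 12 after 6 h. In CPM every treated library was below both NT libraries. The log2 fold change was -1.36 ± 0.33 after 0.5 h (adjusted p = 0.0582, not called), -2.99 ± 0.41 after 1 h (adjusted p = 0.000341), -1.96 ± 0.35 after 2 h (adjusted p = 0.00203) and -1.46 ± 0.34 after 6 h (adjusted p = 0.00899). Its lowest level came at 1 hpd, 1 time point before the lowest level of Lifr, and whether the courses of the pair differ was not tested. Counts cover whole TUs (3908 bases here, 79.4 kb for Lifr), and a part of TU length in the timing of any gene was not tested. The sequence around the start of this TU, up to the base before an annotated Lifr start at chr15:7129555, is shown because the minus-strand TU begins in it and the Lifr TU begins shortly after it, with the first base of the minus-strand TU in capitals (chr15:7129322-7129554, plus strand, GRCm38.p6, RefSeq).

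Lifr promoter: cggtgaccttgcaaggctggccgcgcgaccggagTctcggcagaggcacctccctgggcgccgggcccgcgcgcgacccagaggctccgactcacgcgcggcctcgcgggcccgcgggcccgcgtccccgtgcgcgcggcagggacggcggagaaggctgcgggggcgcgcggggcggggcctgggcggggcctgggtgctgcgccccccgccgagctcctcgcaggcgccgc

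Of its 233 bases 82.8% were G or C, with 40 CpG dinucleotides, beside medians of 52.4% and 6 over the 250 bases before the 32851 starts of the RefSeq promoter table. The 1000 bases before the Lifr start at chr15:7129572 held no match to the STAT motif TTCNNNGAA and 1 match to the SOX core CATTGT, on either strand. Those before the Lifr start at chr15:7140542 held no STAT match and 2 SOX core matches. Of all promoter windows of that length, 27.6% held the STAT letters and 38.1% the SOX letters.

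A pair of overlapping TUs about 14.0 kb upstream of Lifr, on opposite strands, had too few fragments for the test and held 0 to 2 per library from 1 hpd on. The plus-strand TU (chr15:7115099-7117334) held 11 and 10 fragments in NT, 6 and 4 after 0.5 h, 0 and 1 after 1 h, 0 and 0 after 2 h, and 1 and 1 after 6 h. The minus-strand TU (chr15:7114753-7116107) held 14 and 9 in NT, 8 and 2 after 0.5 h, 0 and 2 after 1 h, 0 and 2 after 2 h, and 1 and 2 after 6 h. A count of 0 allows up to 3 fragments in a library, and this covers counting error only. In the fit without a count filter, over 40779 TUs, the adjusted p at 1 hpd was 0.00648 for the plus strand and 0.0189 for the minus strand, while at 0.5 hpd neither was called (0.457 and 0.436). Both lie inside the annotated span of 1 predicted Lifr transcript, which starts at chr15:7090610, and 1 further TU that started 21.2 kb upstream was not called at any time (adjusted p = 0.0556 at 6 hpd).

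**Figure D2:**
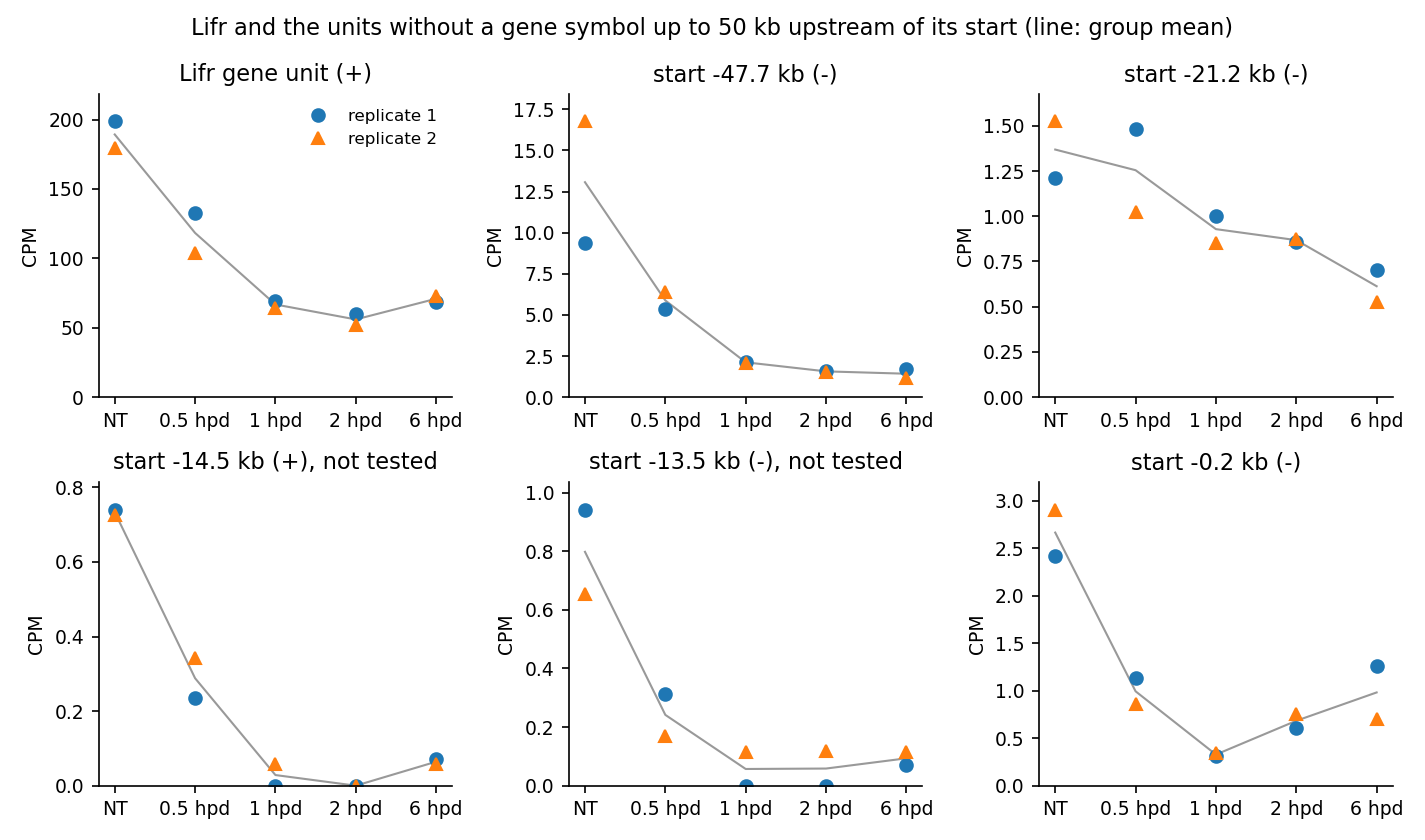
CPM of Lifr and of the 5 TUs without a symbol that start upstream of it within 50 kb (vertical axes, each from 0), by group (horizontal axes), with circles for replicate 1, triangles for replicate 2, lines through group means and the distance and strand of each start as panel titles. The TUs at -47.7, -14.5, -13.5 and -0.245 kb were lower in every treated library than in NT, and the TU at -21.2 kb overlapped NT at 0.5 hpd.

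The 1009 bases shared by this pair of TUs held 3 matches to the STAT motif TTCNNNGAA, 1 of which also met the narrower form TTCCNGGAA, 2 matches to the octamer ATGCAAAT and 1 to the SOX core CATTGT. The octamer is the sequence that OCT4, the partner of SOX2, is known to bind. The stretches with these matches are shown because STAT3 and the SOX2 and OCT4 pair are the factors that the LIF pathway and the depletion concern. They were chosen after the values had been seen, with the matches on either strand in capitals (plus strand, GRCm38.p6, chr15:7115507-7115702 and chr15:7115852-7115972).

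Lifr upstream STAT matches: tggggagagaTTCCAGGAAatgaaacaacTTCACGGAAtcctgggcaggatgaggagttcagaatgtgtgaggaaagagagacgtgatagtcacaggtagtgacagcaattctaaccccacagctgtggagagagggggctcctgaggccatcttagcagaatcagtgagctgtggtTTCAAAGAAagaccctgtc
Lifr upstream octamer and SOX matches: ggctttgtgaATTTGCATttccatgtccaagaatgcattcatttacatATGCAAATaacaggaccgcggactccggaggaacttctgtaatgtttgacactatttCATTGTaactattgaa

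Of 14893 windows of the same length centred on the starts of TUs outside genes, 26.2% held at least 1 STAT match, 3.08% the narrower form, 7.40% an octamer and 40.4% the SOX core. As many matches as here were held by 0.718% of these windows for the STAT motif and by 0.645% for the octamer. A match is a description of letters, and binding at these sites was not measured in these files.

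Il6st encodes gp130, the signal-transducing chain that LIFR shares with the receptors of the whole interleukin-6 family. Its TU spans chr13:112462881-112520691 on the plus strand. Il6st was at 221 and 216 CPM in NT, 169 and 138 CPM at 0.5 hpd, 128 and 130 CPM at 1 hpd, 149 and 140 CPM at 2 hpd, and 131 and 147 CPM at 6 hpd. All 8 treated libraries lay below both NT libraries, and the libraries of 2 and 6 hpd overlapped each other. The log2 fold change was -0.51 ± 0.11 after 0.5 h (adjusted p = 0.0369), -0.76 ± 0.11 after 1 h (adjusted p = 0.00067), -0.59 ± 0.11 after 2 h (adjusted p = 0.00287) and -0.65 ± 0.11 after 6 h (adjusted p = 0.001). At its lowest, at 1 hpd, it stood at 59.1% of NT, and the difference between 6 and 1 hpd was 0.11 ± 0.11 in edgeR (adjusted p = 0.667).

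The TU on the opposite strand at the Il6st start, annotated by the authors as antisense to it (chr13:112460218-112463939), moved down too. It overlaps the Il6st TU as deposited (from chr13:112462881), but begins before the annotated Il6st start at chr13:112464070 and runs away from that start. It held 40 and 73 fragments in NT, 35 and 23 after 0.5 h, 19 and 17 after 1 h, 11 and 20 after 2 h, and 19 and 14 after 6 h. Its log2 fold change was -1.31 ± 0.37 after 0.5 h (adjusted p = 0.124, not called), -1.88 ± 0.40 after 1 h (adjusted p = 0.00968), -2.22 ± 0.41 after 2 h (adjusted p = 0.00235) and -1.90 ± 0.40 after 6 h (adjusted p = 0.00476). In CPM all treated libraries were below both NT libraries, which themselves stood apart (2.69 and 5.30 CPM). Of 5 TUs without a symbol within 50 kb of the Il6st start 2 passed the count filter, and the other one, which starts 45.6 kb upstream, was lower at 6 hpd (-0.81 ± 0.21, adjusted p = 0.0184), where 9.20% of all TUs were called down.

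The 250 bases before the annotated Il6st start are shown because both TUs cross or begin in them, with the first base of the opposite-strand TU in capitals (chr13:112463820-112464069, plus strand, GRCm38.p6, RefSeq).

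Il6st promoter: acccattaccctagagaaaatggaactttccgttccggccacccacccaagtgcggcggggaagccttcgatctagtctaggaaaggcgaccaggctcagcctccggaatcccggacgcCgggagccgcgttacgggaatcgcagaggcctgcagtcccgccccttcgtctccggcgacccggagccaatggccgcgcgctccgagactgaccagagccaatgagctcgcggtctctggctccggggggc

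This stretch was 66.0% G or C with 26 CpG dinucleotides. The 1000 bases before the start held 1 octamer match 785 bases upstream and 1 SOX core match 626 bases upstream, and no STAT match. Of all promoter windows 5.62% held an octamer match.

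Jak1 encodes the kinase that is the main carrier of gp130 signals. Its TU spans chr4:101144312-101265227 on the minus strand. Jak1 was at 66.4 and 58.2 CPM in NT, 67.2 and 57.6 CPM at 0.5 hpd, 73.3 and 69.6 CPM at 1 hpd, 93.8 and 79.0 CPM at 2 hpd, and 87.4 and 91.5 CPM at 6 hpd. The 0.5 hpd libraries overlapped NT, and those of 2 and 6 hpd lay above every NT, 0.5 hpd and 1 hpd library. The log2 fold change was 0.01 ± 0.12 after 0.5 h (adjusted p = 0.995) and 0.20 ± 0.12 after 1 h (adjusted p = 0.409), and then passed the test after 2 h (0.47 ± 0.12, adjusted p = 0.0186) and after 6 h (0.52 ± 0.12, adjusted p = 0.00717). Without NT replicate 2 neither call was made, nor was the first without 2 hpd replicate 1 or the second without 6 hpd replicate 2. Raver2, on the opposite strand with its end inside the Jak1 TU, was not called at any time.

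Stat3 encodes the transcription factor at the end of the cascade. Its TU spans chr11:100877102-100939447 on the minus strand. Stat3 was at 160 and 152 CPM in NT, 187 and 188 CPM at 0.5 hpd, 216 and 236 CPM at 1 hpd, 239 and 230 CPM at 2 hpd, and 193 and 205 CPM at 6 hpd. All treated libraries lay above both NT libraries, and those of 1 and 2 hpd lay above those of 0.5 and 6 hpd. Against NT the log2 fold change was 0.26 ± 0.10 after 0.5 h (adjusted p = 0.312), 0.54 ± 0.10 after 1 h (adjusted p = 0.00389), 0.59 ± 0.10 after 2 h (adjusted p = 0.00128) and 0.35 ± 0.10 after 6 h (adjusted p = 0.0243). The call at 1 hpd was lost without 1 hpd replicate 2, and the 6 hpd call was lost if NT replicate 2 or either 6 hpd library was left out. The step down from 2 to 6 hpd was -0.23 ± 0.10 with an adjusted p of 0.381. The TUs of Stat5a and of LOC108167926 overlap Stat3 on the other strand and were not called at any time. Neither Jak1 nor Stat3 had a STAT, SOX core or octamer match in the 1000 bases before its start.

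**Figure D3:**
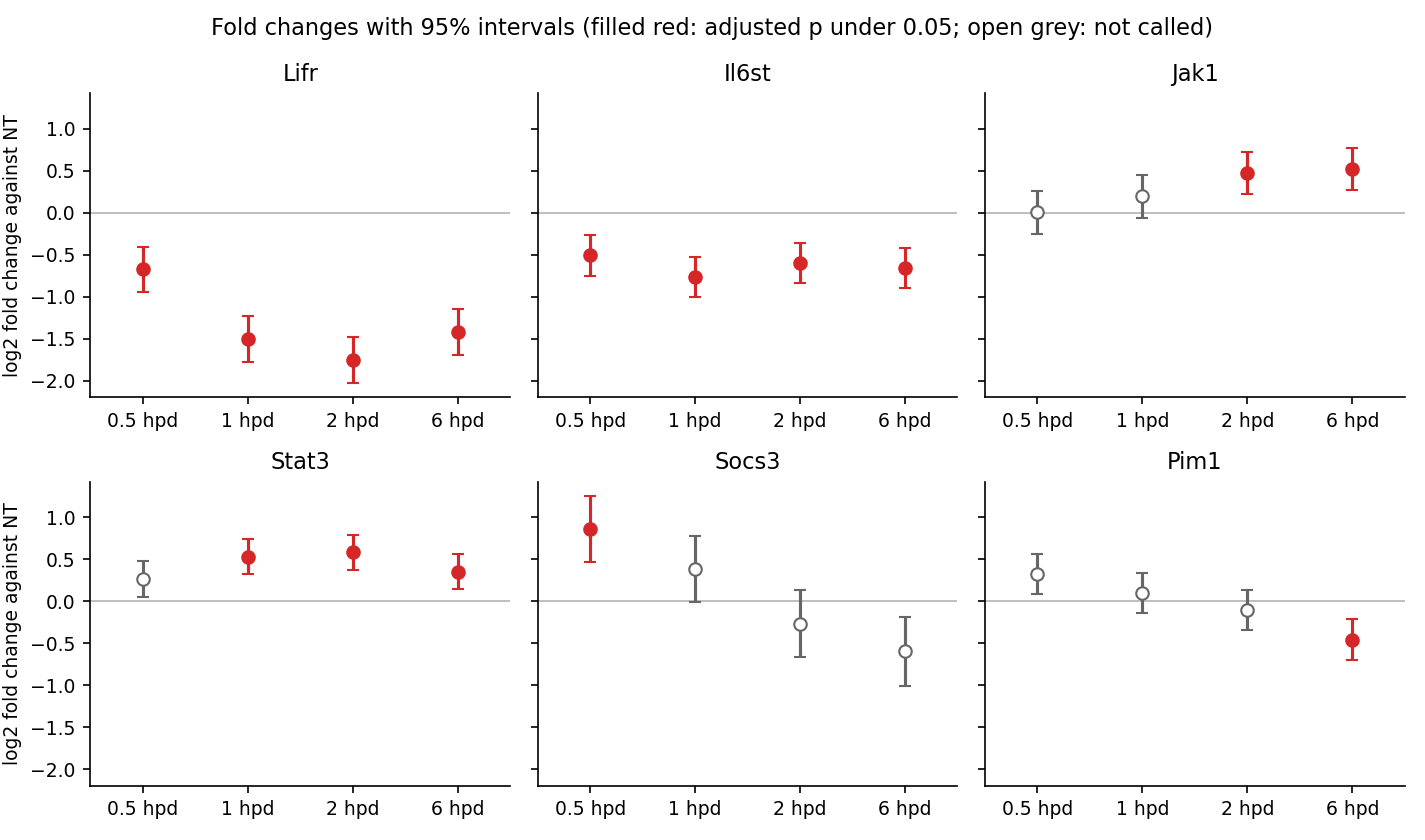
Log2 fold change against NT (vertical axis, shared) at 0.5, 1, 2 and 6 hpd (horizontal axis) for the 6 genes, with 95% intervals from the edgeR fit, and filled red points for an adjusted p under 0.05. The intervals of Lifr and Il6st lie below 0 at all 4 times, those of Stat3 lie above 0, and those of Socs3 and Pim1 pass from above 0 at 0.5 hpd to below 0 after 6 h.

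Socs3 encodes the feedback inhibitor of the receptor complex and is among the best known direct targets of STAT3. Its TU spans chr11:117960585-117970014 on the minus strand. Socs3 was at 22.2 and 21.9 CPM in NT, 35.2 and 45.9 CPM at 0.5 hpd, 25.3 and 32.2 CPM at 1 hpd, 14.5 and 22.4 CPM at 2 hpd, and 15.1 and 14.2 CPM at 6 hpd. The libraries of 0.5 and 1 hpd lay above NT, those of 2 hpd spanned it, and those of 6 hpd lay below it. The log2 fold change was 0.87 ± 0.18 after 0.5 h (adjusted p = 0.0291), 0.38 ± 0.19 after 1 h (adjusted p = 0.294), -0.26 ± 0.19 after 2 h (adjusted p = 0.424) and -0.60 ± 0.19 after 6 h, where its adjusted p of 0.0501 lay just outside the threshold. The difference between 6 and 1 hpd passed the test (-0.98 ± 0.19, adjusted p = 0.00709), a comparison that does not involve NT and in which 4.88% of all TUs were called (2.92% down).

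The first STAT match before the Socs3 start at chr11:117969366, 154 bases upstream of it and inside the deposited TU, is shown, as STAT3 is the factor Socs3 is known to answer to, with its flanks and the match in capitals (chr11:117969502-117969530, minus strand, GRCm38.p6). Predicted Socs3 transcripts start further upstream, at chr11:117970336, so that the match lies downstream of that start. Of the 250-base promoter windows, 7.02% held such a match.

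Socs3 STAT match: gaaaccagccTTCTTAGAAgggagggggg

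Pim1 encodes a serine/threonine kinase that STAT3 induces. Its TU spans chr17:29491044-29500824 on the plus strand. The 1000 bases before the annotated start at chr17:29490785 held 1 octamer match and no STAT or SOX core match. Those before the start at chr17:29493085 held 1 STAT match and no octamer or SOX core match. Of all promoter windows of that length, 5.62% held an octamer and 27.6% a STAT match. Pim1 was at 52.4 and 55.2 CPM in NT, 63.3 and 72.0 CPM at 0.5 hpd, 60.7 and 54.9 CPM at 1 hpd, 47.8 and 52.8 CPM at 2 hpd, and 41.4 and 37.0 CPM at 6 hpd. The 0.5 hpd libraries lay above NT and the 6 hpd libraries below it, and those of 1 and 2 hpd overlapped it. The log2 fold change was 0.33 ± 0.11 after 0.5 h (adjusted p = 0.238), 0.10 ± 0.11 after 1 h (adjusted p = 0.678), -0.10 ± 0.11 after 2 h (adjusted p = 0.644) and -0.46 ± 0.11 after 6 h (adjusted p = 0.0128). Pim1 also fell between 1 and 6 hpd (-0.56 ± 0.11, adjusted p = 0.00891), and with Socs3 it was 1 of the 2 genes of the 6 that were called there. Of the TUs near or opposite Socs3 and Pim1, 4 of 6 within 50 kb of each start passed the count filter and none was called in edgeR. At 0.5 hpd 1 of those near Socs3 had an unadjusted p under 0.05 (0.042), and at 6 hpd 1 of those near Pim1 had (0.0416).

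The calls at 0.5 hpd were the least firm. Without NT replicate 1, NT replicate 2 or 0.5 hpd replicate 2, none of Lifr, Il6st and Socs3 was called at that time, although their log2 fold changes kept their sign (-0.87 to -0.50 for Lifr, -0.66 to -0.36 for Il6st and 0.69 to 1.06 for Socs3 over all libraries left out in turn). Il6st was also not called there without either 1 hpd or either 6 hpd library or with RLE factors, and Socs3 was not called there with total counts or with a filter at a mean of 50 fragments. The 6 against 1 hpd difference of Socs3 was lost without 1 hpd replicate 2 or either 6 hpd library, and that of Pim1 without 1 hpd replicate 1 or 6 hpd replicate 2. The fall of Pim1 at 6 hpd was lost without NT replicate 2 or 6 hpd replicate 2.

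Other genes that STAT3 is known to activate in these cells were followed in a list of 14, of which 13 were tested. At 0.5 hpd 1 was up and none down, at 1 hpd 1 was up and 3 down, at 2 hpd 4 were down, and at 6 hpd 8 were down and none up, where 1.31, 5.75, 9.83 and 15.8% of all TUs were called (9.20% down at 6 hpd). The median of the list was -0.18, -0.21, -0.28 and -0.43 on the log2 scale at these times, and Nanog, a stem cell marker, is also a member. The falls at 1 hpd came from Klf4 (-0.95 ± 0.17, adjusted p = 0.00308), Klf5 (-0.52 ± 0.11, adjusted p = 0.00875) and Sall4 (-0.37 ± 0.10, adjusted p = 0.0492, lost under 10 of 17 alternatives), transcription factors of the pluripotency network. At 1 hpd Klf4 was not called without NT replicate 2 or 1 hpd replicate 1, nor Klf5 without NT replicate 2 or either 1 hpd library. Klf4, often placed directly downstream of LIF, was at 102 and 119 CPM in NT and between 48.4 and 83.0 CPM in all treated libraries.

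Junb, Pim3 and Bcl3, which encode an AP-1 subunit, a kinase related to PIM1 and a regulator of NF-κB, are described further for their values at 0.5 and 6 hpd, and were picked from the list after these had been seen. Gbx2 (0.44 ± 0.21 and -0.12 ± 0.22) and Mcl1 (0.06 ± 0.10 and -0.10 ± 0.10) had the same signs at these times and were not called. Junb was at 28.0 and 26.2 CPM in NT, 46.4 and 52.5 CPM at 0.5 hpd, 42.3 and 42.0 CPM at 1 hpd, 23.8 and 25.3 CPM at 2 hpd, and 16.6 and 13.9 CPM at 6 hpd. It rose after 0.5 h (0.86 ± 0.12, adjusted p = 0.00146) and 1 h (0.64 ± 0.12, adjusted p = 0.00386), and at 6 hpd it was below NT (-0.83 ± 0.13, adjusted p = 0.000342). Pim3 differed from NT by 0.37 ± 0.14 after 0.5 h (adjusted p = 0.318) and fell by 6 hpd (-1.08 ± 0.15, adjusted p = 0.00016). Bcl3 differed by 0.39 ± 0.11 after 0.5 h (adjusted p = 0.123) and -0.39 ± 0.11 after 6 h (adjusted p = 0.0301), a call that was not made by DESeq2, nor without either NT library, either 1 hpd library or 6 hpd replicate 2. Between 1 and 6 hpd Junb, Pim3 and Bcl3 each fell in the test.

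**Figure D4:**
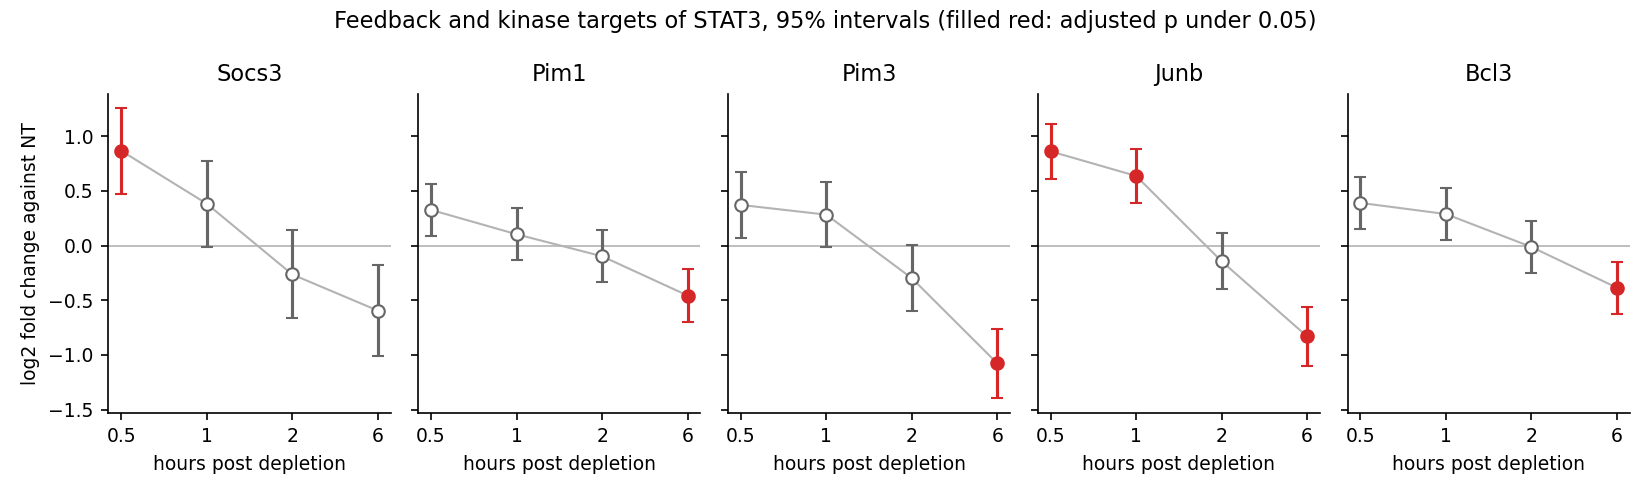
Log2 fold change against NT (shared vertical axis) by hours post depletion (horizontal axis, evenly spaced time points) for Socs3, Pim1, Pim3, Junb and Bcl3, the latter 3 picked after their values were seen, with 95% intervals and filled red points for an adjusted p under 0.05. All 5 genes have a positive estimate at 0.5 hpd and a negative one at 6 hpd, and the calls at 0.5 hpd are those of Socs3 and Junb.

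Genes of the immediate early class respond to many stimuli, including fresh medium and handling. Their summed level over the 11 of 15 in the table was 151 to 158 CPM in NT, 193 to 235 CPM at 0.5 hpd, 202 to 212 CPM at 1 hpd, 167 to 193 CPM at 2 hpd and 138 to 148 CPM at 6 hpd. Of 9 tested, 3 were up at 0.5 hpd (Junb, Atf3 and, named after its values were seen, Zfp36) and none down, where 0.527% of all TUs were called up, and 3 were up and none down at 1 hpd, where 2.15% were. The other 6 were not called by edgeR at either time, while DESeq2 called 4 of the 9 at 1 hpd. Their log2 fold changes at 0.5 hpd were 0.65 ± 0.20 for Btg2, 0.57 ± 0.39 for Fos, 0.49 ± 0.46 for Jun, 0.41 ± 0.14 for Nr4a1, 0.06 ± 0.13 for Ier2 and -0.08 ± 0.13 for Dusp1. The median of the 9 was 0.57 at 0.5 hpd, with 8 above 0, and 0.64 at 1 hpd, with 7 above 0. At 2 hpd 4 were up and none down (4.26 and 5.57% of all TUs), and at 6 hpd 3 were up and 2 down (6.61 and 9.20%), whereas DESeq2 called 2 and 4 genes at these times. Atf3, a stress-induced transcription factor, was called above NT at all 4 times, by 0.62 ± 0.14 after 0.5 h (adjusted p = 0.0445), 1.59 ± 0.14 after 2 h (adjusted p = 3.66e-06) and 1.33 ± 0.14 after 6 h (adjusted p = 1.15e-05), the first of these lost under 10 of 17 alternatives. The part of such a response in the early values of Socs3, Pim1, Pim3, Junb and Bcl3 was not tested.

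The remaining targets were called down at 2 and 6 hpd or not called at any time. Myc, at 1.95 and 2.11 CPM in NT, was called after 2 h (-1.17 ± 0.31, adjusted p = 0.0263) and after 6 h (-2.07 ± 0.36, adjusted p = 0.00108), when it stood at 0.42 and 0.52 CPM. Pramel7 was called at the same times (-0.58 ± 0.17, adjusted p = 0.039, and -1.07 ± 0.17, adjusted p = 0.000637), as was Nanog (-0.51 ± 0.11, adjusted p = 0.00642, and -0.43 ± 0.11, adjusted p = 0.012). DESeq2 did not call Myc and Pramel7 after 2 h. That Myc call was also lost without either NT library or 2 hpd replicate 1 and with only the libraries compared, and that of Pramel7 without NT replicate 2, 2 hpd replicate 1 or either 6 hpd library. Nanog was not called without NT replicate 2 at both times, nor at 6 hpd without either library of that time. Tfcp2l1, Mcl1, Gbx2 and Sp5 were not called by edgeR at any time. Tfcp2l1, a self-renewal factor downstream of LIF, ranged from 826 to 1038 CPM over the 10 libraries and differed from NT by 0.01 ± 0.11 after 6 h.

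The other parts of the pathway are read against the share of all TUs called, which was 1.31, 5.75, 9.83 and 15.8% at 0.5, 1, 2 and 6 hpd. Of 14 ligands and receptors of the interleukin-6 family 8 were tested, and none was called before 6 hpd by edgeR or DESeq2 (0, 1 and 1 had an unadjusted edgeR p under 0.05 at 0.5, 1 and 2 hpd). At 6 hpd Osm, which encodes the cytokine oncostatin M, was down (-1.26 ± 0.22, adjusted p = 0.0011) and Il6ra, which encodes the IL-6 receptor, was up (0.55 ± 0.15, adjusted p = 0.0228, lost under 4 of 17 alternatives). Lif itself was at 7.74 and 7.41 CPM in NT and between 4.57 and 8.12 CPM after depletion, and was not called by edgeR at any time (adjusted p = 0.0988 at 6 hpd). Of the 9 other JAK and STAT genes, edgeR called Stat2 and no other against NT, at 2 hpd (0.41 ± 0.11, adjusted p = 0.0314, lost under 5 of 17 alternatives).

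Among 14 tested negative regulators of JAK-STAT signalling, 1 of which was called at 0.5 hpd, 1 after 1 h, 2 at 2 hpd and 3 after 6 h, Socs2 had the lowest log2 fold change at all 4 times. From 1 hpd on these counts were no more than 3 of 14, close to the share of all TUs called, and DESeq2 called 4 at 6 hpd. Socs2, an inhibitor best known for growth hormone signalling, was at 80.16 and 80.01 CPM in NT, 60.8 and 59.4 CPM at 0.5 hpd, 49.4 and 50.6 CPM at 1 hpd, 49.8 and 51.0 CPM at 2 hpd, and 36.2 and 37.7 CPM at 6 hpd. All treated libraries lay below NT, and those of 6 hpd below all others. It fell by 0.41 ± 0.09 on the log2 scale after 0.5 h (adjusted p = 0.0429, lost under 11 of 17 alternatives) and by 1.12 ± 0.10 after 6 h (adjusted p = 2.23e-06). The calls that went up were Ptpn2, a phosphatase of JAK1 and STAT proteins, after 2 h (0.41 ± 0.11, adjusted p = 0.0292) and 6 h (0.40 ± 0.11, adjusted p = 0.0236), and Pias1 at 6 hpd (0.42 ± 0.13, adjusted p = 0.0376). The call of Ptpn2 at 2 hpd and that of Pias1 were each lost under 6 of 17 alternatives, and that of Ptpn2 at 6 hpd under 3. Of 17 tested adaptors and members of the ERK and PI3K arms, none was called before 6 hpd in edgeR (2, 3 and 8 had an unadjusted p under 0.05 at 0.5, 1 and 2 hpd, and DESeq2 called 0, 1 and 2, beside 1.37, 4.87 and 8.41% of all TUs), and 2 rose at 6 hpd, namely Pik3r1 (0.41 ± 0.10, adjusted p = 0.0139) and Sos1 (0.51 ± 0.14, adjusted p = 0.0238). Both calls were lost without NT replicate 2 or 6 hpd replicate 2, and that of Pik3r1 also without 6 hpd replicate 1.

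**Figure D5:**
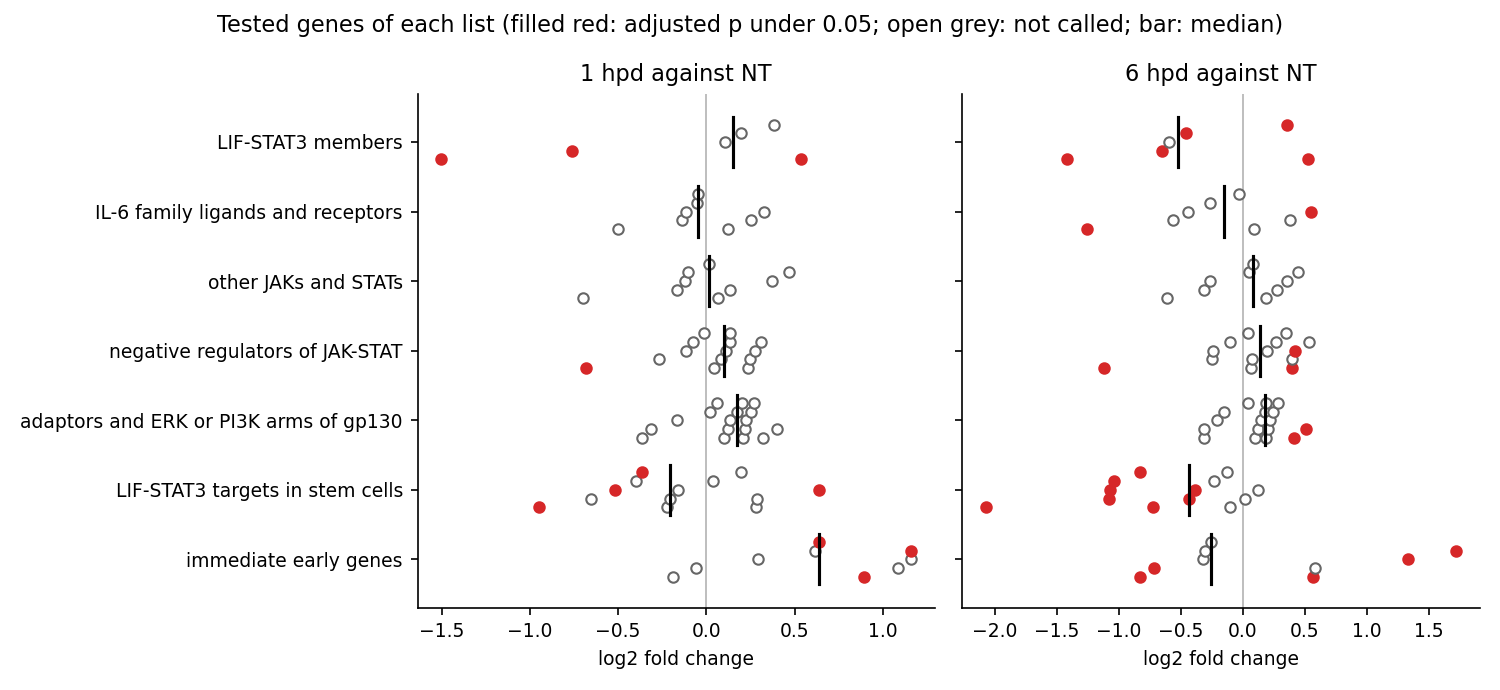
Log2 fold change against NT (horizontal axes) at 1 hpd and 6 hpd for every tested gene of 7 lists (rows, with points spread vertically only for legibility), with filled red points for an adjusted p under 0.05 and a black bar at the list median. Lifr lies lowest of all genes shown at 1 hpd (-1.50), and at 6 hpd 8 of 13 STAT3 targets are called down.

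Across the 10 libraries, the courses most like those of the 6 genes, by Pearson's r of log2 CPM among 11937 TUs with a symbol and at least 50 fragments on average, were in each case those of genes outside the pathway lists. The libraries share groups, and same-numbered ones shared variation in most groups, so that r is only a description. Lifr was followed most closely by Mov10 (r = 0.987), Arhgef18 (0.983) and Acadm (0.982), and Il6st by Phc1 (0.973), Nfu1 (0.969) and Fam60a (0.968). Jak1 was nearest to Chpt1 (0.994), Sash1 (0.990) and Gm32778 (0.987), and Stat3 to Eif2d (0.980), Fnip2 (0.975) and Tmem41b (0.968). Socs3 was nearest to Usf1 (0.978), Birc5 (0.963) and Gm34771 (0.962), and Pim1 to Eno1 (0.964), Zbtb7a (0.960) and Rasgef1a (0.958). Changes of the companions could be smaller than those of the member, as for Mov10, whose log2 fold change at 2 hpd was -0.61 beside -1.76 for Lifr.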

How the data were processed

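TT_chem-seq libraries of SOX2-FKBP cells (5 groups, 2 replicates each) were grouped by the labels. The deposited table holds unnormalized counts of fragments for each TU. Per the methods, the authors aligned reads to mm10, filtered them on mapping quality, removed duplicates, defined TUs on pooled data per strand with a hidden Markov model and counted fragments. The submitters' processing notes name BWA 0.7.17-r1188, SAMtools 1.10 and Picard 2.12.0. TU positions were also deposited, and the starts of deposited transcripts lay 1 base below RefSeq for 4 of the 6 genes.

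A TU entered the test if at least 2 libraries exceeded 10 fragments. Tests used edgeR 4.0.16 (R 4.3.3; TMM, 1 coefficient per group, all 10 libraries), with Benjamini-Hochberg adjustment over all tested TUs and a threshold of 0.05. CPM use TMM factors. SE is the size of the log2 fold change over the square root of F. TUs left out held 0.316% of fragments. The biological coefficient of variation was 10.0%, and replicates differed by more than counting error (chi-square per degree of freedom 2.69 to 9.03). The fit was first tested on simulated data, in which nearly all of the largest changes were recovered, most of the smallest were missed, and the share of false calls was somewhat above the threshold. Alternatives were DESeq2 1.42.0, RLE factors, total counts, other count filters, only the libraries compared, a replicate block and each library left out.

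The members and the gene lists were chosen with earlier results of these data known. Named genes were the 6 members, the 3 genes per list with the smallest joint p, every gene of the STAT3 target list, the 3 nearest courses per member, and called TUs opposite a member or, without a symbol, within 50 kb of its start. Motifs were searched on both strands of GRCm38.p6, and promoters came from a RefSeq table that held all 6 genes.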

Additional observations from a re-analysis of the deposited data

Results flagged for a closer look

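Several genes differed between treated time points in a test of the difference itself (edgeR, adjusted over all tested TUs), without NT. Lifr was lower at 1 than at 0.5 hpd by a log2 difference of -0.83 ± 0.13 (SE, adjusted p = 0.0166). Between 6 and 1 hpd, Socs3 (-0.98 ± 0.19, adjusted p = 0.00709) and Pim1 (-0.56 ± 0.11, adjusted p = 0.00891) were lower at 6 hpd. Among their fellow targets the same held for Junb (-1.47 ± 0.12, adjusted p = 1.01e-05), Pim3 (-1.36 ± 0.15, adjusted p = 7.43e-05), Bcl3 (-0.67 ± 0.11, adjusted p = 0.00227), Myc (-1.42 ± 0.38, adjusted p = 0.0425) and Pramel7 (-0.87 ± 0.17, adjusted p = 0.00877). The other 8 of the 13 tested targets were not called there, where 2.92% of all TUs were called down. Junb had already fallen from 1 to 2 hpd (-0.78 ± 0.12, adjusted p = 0.0113) and fell again from 2 to 6 hpd (-0.69 ± 0.12, adjusted p = 0.0168), as did Pim3 in the latter step (-0.78 ± 0.15, adjusted p = 0.0233).

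Of the inhibitors, Socs2 was lower at 6 hpd than after 2 h (-0.45 ± 0.10, adjusted p = 0.0467) and after 1 h (-0.44 ± 0.10, adjusted p = 0.0159). Of the 9 immediate early genes tested, 4 were called lower at 6 than at 1 hpd and none higher, where 2.92% of all TUs were called down. Among these were Junb and Nr4a1 (-0.54 ± 0.14, adjusted p = 0.0334). The median of the 9 was -0.52, and DESeq2 called 3. Jak2 (0.55 ± 0.15, adjusted p = 0.0451) and Pik3r1 (0.39 ± 0.10, adjusted p = 0.0417) were higher at 6 than at 1 hpd. DESeq2 did not call the differences of Jak2 (adjusted p = 0.0501) and Myc (adjusted p = 0.175), and for genes other than the 6 members the differences between treated times were not recomputed with libraries left out.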

How the results depend on the processing

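For the LIF-STAT3 members, 370 of 408 values under alternatives kept their direction and side of the threshold, 26 lost a call, 8 gained one and 4 changed sign. Lifr and Il6st at 1, 2 and 6 hpd and Stat3 at 2 hpd were called under all 17 alternatives. The sign changes were in values that were not called, namely Jak1 at 0.5 hpd (-0.027 with total counts, -0.079 without NT replicate 2, and -0.11 to 0.12 over all libraries left out) and Socs3 at 2 hpd (0.023 without 2 hpd replicate 1, and -0.62 to 0.023 over all). With each library left out in turn, the number of LIF-STAT3 members called was 0 to 3 at 0.5 hpd, 2 to 3 at 1 hpd, 3 to 5 at 2 hpd and 2 to 6 at 6 hpd, 0 to 1 between 1 and 0.5 hpd, and 0 to 2 between 6 and 1 hpd. At 6 hpd only Lifr and Il6st remained without NT replicate 2 or without 6 hpd replicate 2. Each such fit tests fewer libraries and assumes that the lone library of a group varies like the others. Socs3 at 6 hpd, just outside the threshold, was called under 7 alternatives. Of the other named genes 473 of 559 values kept their call and 86 lost it. The median of all TUs moved with total counts from -0.04 to -0.16 at 2 hpd.

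The labels do not say what a replicate number marks. Same-numbered libraries shared variation in most groups, with deviations correlated above 0.1 in 8 of 10 pairs of groups (range 0.05 to 0.66), the exceptions being 6 hpd with 0.5 and with 2 hpd, so that pairing was not taken as given. With the replicate number as a block, 1 of the LIF-STAT3 members (Socs3, lower at 2 hpd) was called between 2 and 1 hpd in place of 0, where 0.949% of all TUs were called with it. All 6 were called at 6 hpd in place of 5, and 3 between 6 and 1 hpd in place of 2, where 10.9% of all TUs were called with it. With it 1120, 3188, 5446 and 7430 TUs (3.94, 11.2, 19.1 and 26.1%) were called at 0.5, 1, 2 and 6 hpd in place of 374, 1637, 2798 and 4498, and counts in the gene lists rose beside these. The list counts were, among others, 2 of 8 ligands and receptors at 2 hpd in place of 0 (Osm, adjusted p = 0.0421, and Il6ra, 0.0499, in edgeR), 2 of 9 other JAK and STAT genes at each of 1, 2 and 6 hpd in place of 0, 1 and 0, 2 and 5 of 17 adaptors at 1 and 2 hpd in place of 0, and 6 of 14 negative regulators at 6 hpd in place of 3. Lif at 6 hpd (adjusted p = 0.0196, edgeR with the block) and Sp5 at 1 hpd (0.0431) were called with it. The restriction to the libraries compared was not run for the joint test, which uses all of them. Depth limits the upstream TUs of Lifr, which held at most 14 fragments per library 14.0 kb upstream.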
